A study of Mus musculus with 20 samples.

Results

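The 10 genes described here encode enzymes, an enzyme partner and a receptor of eicosanoid and endocannabinoid signalling in the epididymal white adipose tissue (eWAT) of mice. They were taken from 14776 genes with deposited expression values. Hpgds and Daglb were picked because they rose clearly with high-fat diet in these same mice. The other 8, Ptgs1, Ptgs2, Ptges, Ptger4, Alox5, Alox5ap, Ltc4s and Pla2g7, are their neighbours in the pathways. All 10 were found in the deposited table, and all 10 passed the filter on low values in each comparison.

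The study examined Ramulus Mori (Sangzhi) alkaloids (SZ-A), an extract of mulberry twig used against diabetes, in diet-induced obesity. All mice were male C57BL/6J, 6 weeks old at the start, and labelled as epididymal adipose tissue. The normal control group (NC, n = 6) ate maintenance feed, and whether it was gavaged is not clear from the methods. The HFD group (n = 7) ate feed with 60% of its energy from fat for 14 weeks and was then gavaged with saline for 6 weeks while the same feed continued. The SZ-A group (n = 7) was treated likewise but received SZ-A at 400 mg/kg per day for those 6 weeks. The treated mice thus share diet, age and gavage with the HFD mice, and a single dose was sequenced, so no order by dose can be given.

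Eicosanoids are short-lived lipid signals made from arachidonic acid that phospholipases cut from membranes. Cyclooxygenases turn it into prostaglandin H2, from which dedicated synthases make prostaglandins and thromboxane, and 5-lipoxygenase turns it into leukotrienes. Endocannabinoids such as 2-arachidonoylglycerol are built from the same membrane lipids, and in adipose tissue macrophages, mast cells, adipocytes and vessel or epithelial cells each use different branches of these pathways.

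The promoters of Hpgds and Daglb are shown because both genes had the largest rises between NC and HFD among the 10. The sequence is that before the RefSeq start on GRCm38.p6, read in the direction of the gene, and capitals mark the letters GAGGAA, which form the core of many sites bound by PU.1, a factor of the myeloid lineage.
Hpgds, chr6:65144731-65144980, minus strand: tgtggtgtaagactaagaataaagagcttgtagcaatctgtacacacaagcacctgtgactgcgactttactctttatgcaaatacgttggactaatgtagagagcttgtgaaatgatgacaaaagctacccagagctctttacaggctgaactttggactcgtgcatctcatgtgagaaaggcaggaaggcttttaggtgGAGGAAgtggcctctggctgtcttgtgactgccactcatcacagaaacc
Daglb, chr5:143464243-143464492, plus strand: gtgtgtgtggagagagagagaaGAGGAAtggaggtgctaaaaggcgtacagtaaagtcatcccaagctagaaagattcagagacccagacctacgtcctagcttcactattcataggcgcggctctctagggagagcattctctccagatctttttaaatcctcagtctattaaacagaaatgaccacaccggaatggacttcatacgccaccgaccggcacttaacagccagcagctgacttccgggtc

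Over windows from 250 bases before to 50 after the start, GAGGAA was found on either strand in 7 of the 9 genes that had a window, against 28.3% of 32851 mouse promoter windows of the same length. Alox5ap had no window. The motifs TGANTCA, known from AP-1 sites, and GGG followed by any 2 bases and TTTCC, known from NF-κB sites, were searched on both strands too. Neither was found in the 9 windows, so no overlap between motifs arose, and they stood in 7.81% and 1.63% of all windows. The letters were present both in genes that were higher and in genes that were lower in HFD than in NC mice, as the following stretches show, with capitals as above. Ptges carries the motif on the other strand and therefore reads TTCCTC.
Ptgs1, chr2:36230382-36230425, plus strand: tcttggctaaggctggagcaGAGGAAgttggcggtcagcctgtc
Ptges, chr2:30903421-30903466, minus strand: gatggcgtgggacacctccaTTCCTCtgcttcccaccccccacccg
Alox5, chr6:116461289-116461334, minus strand: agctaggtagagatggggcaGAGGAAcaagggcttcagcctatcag
A match of letters is a description and does not show that a factor binds there.

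Values are FPKM, the fragments of a gene relative to its length and to the size of the library, so they are per length and can be compared between genes. The deposited genes held 13567667 to 19388628 reads in each mouse. Comparisons used limma on log2(FPKM + 1), a scale that understates fold changes of low genes, and a gene was called at an adjusted p under 0.05 over all genes tested. The HFD against NC comparison helped to choose the 10 genes, so for them it is given without a test, while both comparisons of SZ-A were tested. These share their HFD or NC mice with the comparison that chose the genes. Nothing in the labels says how mice were housed or sampled together, so each p-value measures the spread between these mice.

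Some libraries stood apart. NC mouse 6 had 26.6 FPKM of Adipoq, an adipocyte hormone, against 859 to 2278 in the other NC mice, and its summed level of 10 adipocyte markers was 438 against 7839 to 19983. Its Ly6g5b, listed here as a marker of epididymal epithelium, was 2702 FPKM, whereas SZ-A mouse 2 had 352 and every other mouse less than 1. Epithelial genes were also unevenly spread. Cdh1, an epithelial adhesion protein, was 0.0136 FPKM in NC mouse 3 and 13.0 to 71.1 in the other 5 NC mice, 0.0123 to 0.184 in HFD mice, 28.4 in SZ-A mouse 2 and 26.1 in SZ-A mouse 7, and at most 2.59 in the other 5 SZ-A mice. Of 20 epididymis markers 3 were in the table and of 7 mesothelial markers 3 were in it, and since the table lists no value at 0 the remaining markers were not analysed here. Results that rest on NC mouse 6, SZ-A mouse 2 or SZ-A mouse 7 are therefore also given without all 3, an alternative chosen after the values were seen.

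Macrophage markers followed the diet and the treatment. The sum of 16 macrophage markers was 93.6 to 881 FPKM in the NC group, 3708 to 9737 in the HFD group and 1501 to 4969 in the SZ-A group. All 16 had a log2 fold change above 0 between HFD and NC, and 15 were called higher, where 21.0% of all genes were. Between SZ-A and HFD all 16 were below 0 and 13 were called lower, where 13.3% of all genes were. SZ-A mice 5 and 6, at 4969 and 3777, lay within the HFD range, while the other 5 SZ-A mice were at most 1932. Mast cell markers, 6 of 11 in the table, summed to 4.72 to 27.9 FPKM in the NC group, 51.2 to 710.1 in the HFD group and 13.8 to 67.7 in the SZ-A group. All 6 were above 0 between HFD and NC, with 4 called higher, and all 6 below 0 between SZ-A and HFD, with 4 called lower. In such bulk tissue, fewer cells of a type and less RNA per cell cannot be told apart.

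**Figure D1:**
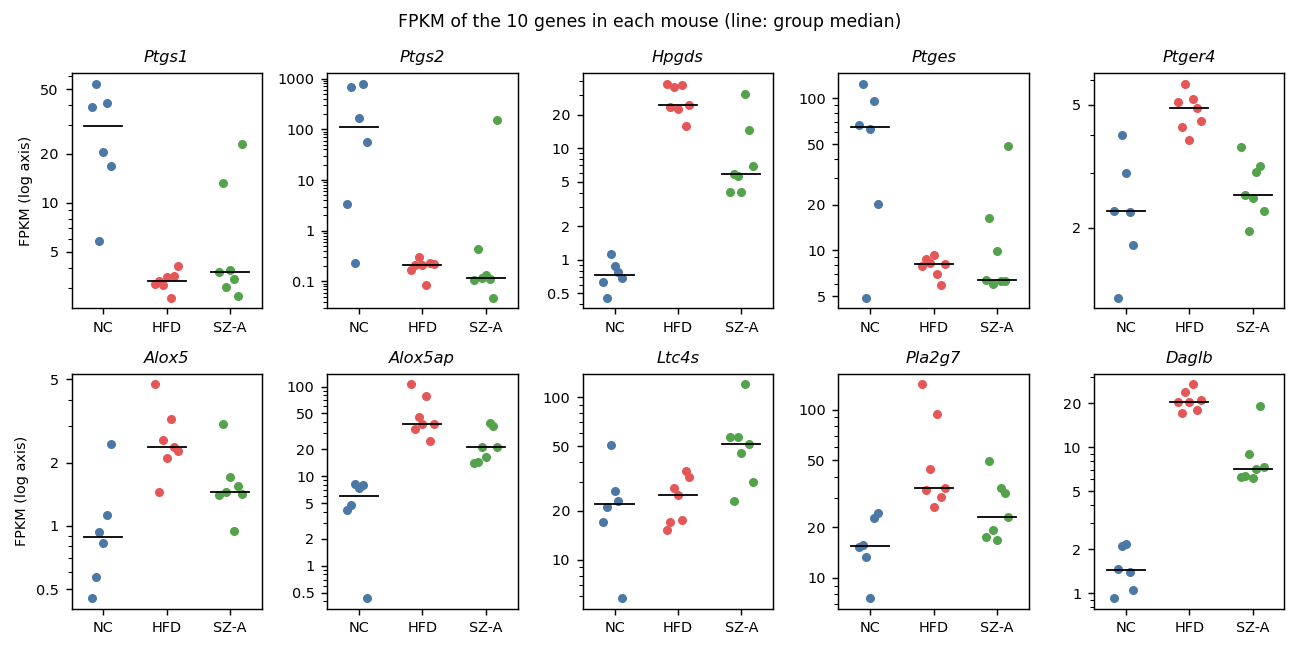
FPKM of each of the 10 genes in each mouse (log axis, a different scale in each panel), with a line at the group median. Hpgds, Daglb, Alox5ap and Pla2g7 are higher in all 7 HFD mice than in all 6 NC mice, Ptgs1 is lower in all 7, and Ptger4 is lower in all 7 SZ-A than in all 7 HFD mice.

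The cyclooxygenases and the inducible prostaglandin E synthase were high in most NC mice and low in nearly all mice on the high-fat diet. Ptgs1 encodes cyclooxygenase 1, the constitutive form, and lies on chromosome 2 (GRCm38, 36230426 to 36252272, plus strand). It ranged from 5.85 to 53.8 FPKM in NC, with a median of 29.5, from 2.61 to 4.09 in HFD, with a median of 3.32, and from 2.67 to 22.9 in SZ-A mice, with a median of 3.77. All HFD mice were below all NC mice, and only SZ-A mice 2 (13.2) and 7 (22.9) were above every HFD mouse. Between HFD and NC its log2 fold change was −2.53 (SE 0.38), a mean of 3.34 ± 0.45 against 29.5 ± 17.9 FPKM (SD, n = 7 and 6). Between SZ-A and HFD the log2 fold change was 0.60 (SE 0.36, adjusted p = 0.24 from limma), which did not pass, and it was 0.00 without NC mouse 6 and SZ-A mice 2 and 7. Against NC, SZ-A mice differed by −1.93 (SE 0.54, adjusted p = 0.060 from limma). Exons of Ptgs1 share 148 of 3884 bases with an opposite-strand gene.

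Ptgs2 encodes cyclooxygenase 2, the inducible form, and lies on chromosome 1 (150100031 to 150108227, plus strand). It spanned the widest range of the 10 genes. The 6 NC mice had 3.41, 692, 0.231, 166, 783 and 55.4 FPKM in the order of their numbers. The 7 HFD mice had 0.0872 to 0.302 FPKM, which is 7 to 25 reads, and 6 of the 7 SZ-A mice had 0.0477 to 0.439, while SZ-A mouse 7 had 154. NC mouse 3 lay within the HFD range, so the groups overlapped, but the other 5 NC mice were above all HFD mice. The log2 fold change between HFD and NC was −5.51 (SE 1.30). Between SZ-A and HFD it was 0.95 (SE 0.90, adjusted p = 0.46 from limma), and without SZ-A mouse 7 alone it was −0.06, so the sign of this value rests on that mouse. Between SZ-A and NC it was −4.57 (SE 1.62, adjusted p = 0.13 from limma).

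Ptges encodes the microsomal enzyme that makes prostaglandin E2 from prostaglandin H2, and it lies on chromosome 2 (30889471 to 30929863, minus strand). NC mice had 4.88 to 124.6 FPKM (median 64.7), HFD mice 5.96 to 9.30 (median 8.10) and SZ-A mice 5.99 to 49.0 (median 6.36). NC mouse 3 had the lowest value of all 20 mice and the other 5 NC mice were above every HFD mouse. The log2 fold change was −2.29 (SE 0.57) between HFD and NC and 0.37 (SE 0.36, adjusted p = 0.47 from limma) between SZ-A and HFD. The second value was −0.17 without the 3 mice named above. Between SZ-A and NC the difference was −1.92 (SE 0.68, adjusted p = 0.14 from limma).

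Ptgs1, Ptgs2 and Ptges varied together over the mice. Pearson's r of log2(FPKM + 1) over the 20 mice was 0.957 for Ptgs1 with Ptges, 0.902 for Ptgs2 with Ptges and 0.870 for Ptgs1 with Ptgs2. With each group's mean removed the values were 0.934, 0.810 and 0.731. These are descriptions over mice that share groups. The same measure over 20 mice gave 0.904 for Ptgs1 with Cdh1 and 0.926 with Aqp9, a water channel listed among the epididymis markers. For Ptgs2 it gave 0.970 with Slco2a1, the prostaglandin transporter, and 0.870 with Hpgd, which inactivates prostaglandins. Slco2a1 was highest in NC mice 2 and 5, at 77.5 and 87.5 FPKM, which were also highest in Ptgs2, and it was 21.0 in SZ-A mouse 7, where no HFD mouse exceeded 2.45. NC mouse 1 did not follow a simple rule, with 56.2 FPKM of Cdh1 but 3.41 of Ptgs2. The part of epithelial or smooth muscle RNA in the levels of Ptgs1, Ptgs2 and Ptges was not tested.

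**Figure D2:**
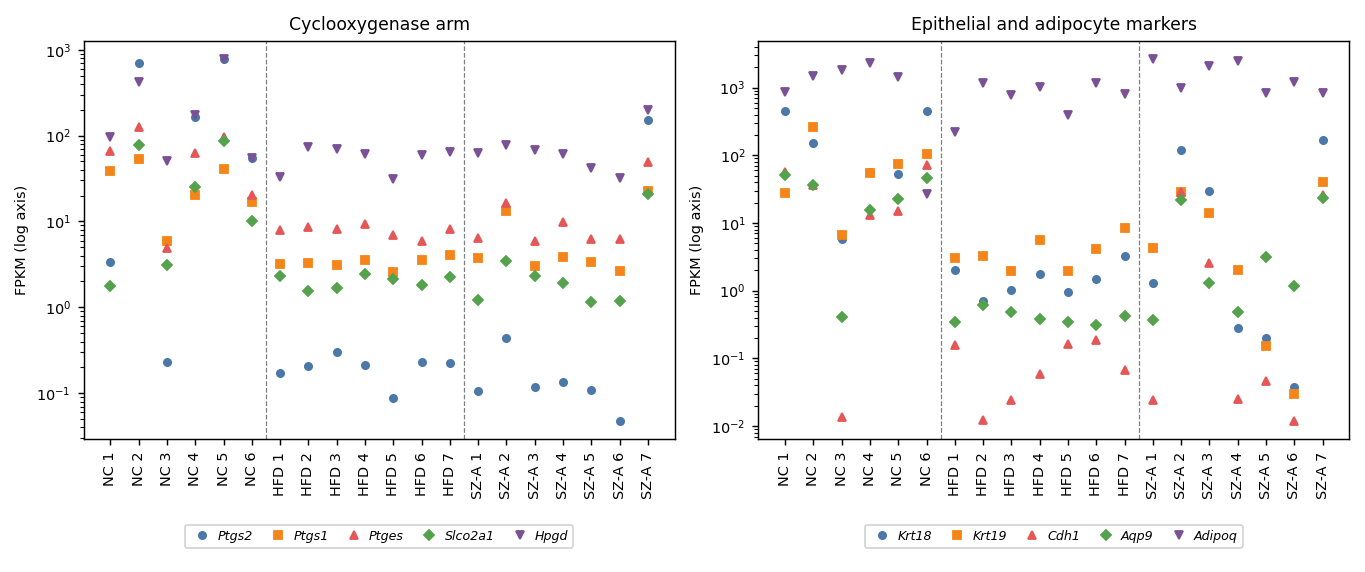
FPKM (log axis) in each of the 20 mice of the cyclooxygenase genes, Ptges, Slco2a1 and Hpgd (left) and of epithelial markers and the adipocyte gene Adipoq (right), with dashed lines between the groups. Ptgs2 is at 154 FPKM in SZ-A mouse 7 and at most 0.439 in the other SZ-A mice, and NC mouse 6 has the lowest Adipoq, 26.6 FPKM.

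Hpgds, the haematopoietic synthase of prostaglandin D2 found in mast cells and macrophages, had the largest rise from NC to HFD in the set. The gene lies on chromosome 6 (65117293 to 65144908, minus strand). NC mice had 0.458 to 1.12 FPKM (median 0.734), HFD mice 15.8 to 37.6 (median 24.2) and SZ-A mice 4.02 to 30.9 (median 5.93). The 3 groups formed steps, with every HFD and SZ-A mouse above every NC mouse and 6 of the 7 SZ-A mice below every HFD mouse. The exception was SZ-A mouse 5, at 30.9 FPKM. Mean FPKM was 0.761 ± 0.228 in NC (SD, n = 6) and 28.0 ± 8.61 in HFD mice (SD, n = 7), a ratio of 36.8, and the log2 fold change was 3.99 (SE 0.19).

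Compared with the HFD group, SZ-A lowered Hpgds by −1.64 on the log2 scale (SE 0.37, adjusted p = 0.0062 from limma). An exact permutation test over all 3432 regroupings of the 14 mice gave p = 0.0047, two-sided and not adjusted for the 10 genes tested this way. Treated mice still stood above NC by 2.36 (SE 0.37, adjusted p = 0.0027 from limma), with no overlap. Left without NC mouse 6 and SZ-A mice 2 and 7, the fall was −1.53 (adjusted p = 0.019 from limma).

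Ptger4, the EP4 receptor for prostaglandin E2, moved less but cleanly. It lies on chromosome 15 (5206661 to 5244187, minus strand). NC mice had 1.19 to 3.98 FPKM (median 2.26), HFD mice 3.85 to 5.84 (median 4.86) and SZ-A mice 1.95 to 3.66 (median 2.55). The highest SZ-A mouse was below the lowest HFD mouse, and the SZ-A values lay inside the range of NC. The log2 fold change was 0.80 (SE 0.17) between HFD and NC, where NC mouse 3 reached into the HFD range. Compared with HFD, SZ-A lowered Ptger4 by −0.64 (SE 0.11, adjusted p = 0.0019 from limma), and the exact permutation p of 5.83e-04 was the smallest that 7 against 7 mice allow. Between SZ-A and NC the difference was 0.16 (SE 0.18, adjusted p = 0.67 from limma), which does not show that the levels were equal. Exons of Ptger4 share 1015 of 6648 bases with a pseudogene and 82 with Ttc33, both on the opposite strand.

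In the leukotriene branch Alox5 and Alox5ap had the same sign in each of the 3 comparisons, and Ltc4s departed from them between SZ-A and HFD. Alox5 encodes 5-lipoxygenase, the first enzyme, and lies on chromosome 6 (116410077 to 116461178, minus strand). It was low throughout, on 30 to 300 reads. NC mice had 0.453 to 2.46 FPKM (median 0.883), HFD mice 1.45 to 4.74 (median 2.39) and SZ-A mice 0.944 to 3.06 (median 1.46). The groups overlapped in each comparison. The log2 fold change was 0.85 (SE 0.21) between HFD and NC and −0.46 (SE 0.18, adjusted p = 0.074 from limma) between SZ-A and HFD. The second value missed the threshold with all mice and passed it at −0.57 (adjusted p = 0.019 from limma) without SZ-A mouse 2 and at −0.55 (adjusted p = 0.037 from limma) without HFD mouse 2.

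Alox5ap encodes FLAP, the membrane protein that presents arachidonic acid to 5-lipoxygenase, and lies on chromosome 5 (149264767 to 149288153, plus strand). Its levels were higher than those of Alox5 in every group by median. NC mice had 0.435 to 8.24 FPKM (median 6.07), HFD mice 24.7 to 106 (median 38.5) and SZ-A mice 14.0 to 39.5 (median 21.0). Every HFD and every SZ-A mouse was above every NC mouse, and 5 SZ-A mice were below every HFD mouse. The lowest value, 0.435 FPKM on 9 reads, belonged to NC mouse 6. Between HFD and NC the log2 fold change was 3.10 (SE 0.44), and 2.71 without NC mouse 6. SZ-A lowered it by −1.09 (SE 0.32, adjusted p = 0.024 from limma; exact permutation p = 0.0082, unadjusted). This call was lost without HFD mouse 5 (adjusted p = 0.056 from limma) and without SZ-A mouse 1 (adjusted p = 0.051 from limma). It was also lost with all 3 groups in a single fit (0.067) and without NC mouse 6 and SZ-A mice 2 and 7 (0.060). Exons of Alox5ap share 189 of 1420 bases with an opposite-strand gene. Against NC, SZ-A mice were higher by 2.01 (SE 0.41, adjusted p = 0.012 from limma).

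Ltc4s, the synthase that joins leukotriene A4 to glutathione to give leukotriene C4, was the only one of the 10 called higher with SZ-A. Against HFD, Ptgs1, Ptgs2 and Ptges had positive log2 fold changes too (0.60, 0.95 and 0.37) but were not called. Ltc4s lies on chromosome 11 (50236461 to 50238616, minus strand). NC mice had 5.82 to 50.8 FPKM (median 22.1), HFD mice 15.3 to 35.4 (median 25.2) and SZ-A mice 23.0 to 120.4 (median 51.9). The NC and HFD ranges lay over each other, and 5 of the 7 SZ-A mice were above every HFD mouse. Diet left a log2 fold change of 0.19 (SE 0.37), which turned to −0.14 without NC mouse 6. With SZ-A it rose by 1.03 (SE 0.30, adjusted p = 0.024 from limma; exact permutation p = 0.0087, unadjusted). The call was lost at an adjusted p of 0.054 from limma without HFD mouse 1 and likewise without HFD mouse 5, and at 0.066 with all 3 groups in a single fit. SZ-A mouse 5, the highest at 120.4 FPKM, also had the highest mitochondrial share of reads, 11.6% against at most 8.34% in the other mice. The exons of Ltc4s share 268 of 1014 bases with the antisense gene Gm26542, and strand-specific counting is not stated, so some reads could belong to either. Gm26542 has deposited values, but they were not set beside those of Ltc4s here.

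Pla2g7 encodes the lipoprotein-associated phospholipase that degrades platelet-activating factor, a lipid mediator of inflammation. It lies on chromosome 17 (43568098 to 43612201, plus strand). NC mice had 7.59 to 24.2 FPKM (median 15.5), HFD mice 26.3 to 141.8 (median 34.2) and SZ-A mice 16.8 to 49.7 (median 23.1). All HFD mice were above all NC mice, and HFD mice 1 (141.8) and 5 (94.2) stood well above the other 5, whose highest value was 44.6. The log2 fold change was 1.56 (SE 0.39) between HFD and NC and −0.87 (SE 0.36, adjusted p = 0.097 from limma) between SZ-A and HFD, which did not pass. HFD mice 1 and 5 also had the highest sums of mast cell markers, 710.1 and 437.4 FPKM, and the highest sums of macrophage markers, 9737 and 7234. The part of those cells in Pla2g7 was not tested. Its exons share 319 of 2905 bases with an antisense gene.

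Daglb encodes diacylglycerol lipase beta, which makes 2-arachidonoylglycerol and in macrophages feeds arachidonic acid to the cyclooxygenases. The gene lies on chromosome 5 (143464584 to 143505942, plus strand). NC mice had 0.927 to 2.16 FPKM (median 1.43), HFD mice 17.1 to 26.9 (median 20.3) and SZ-A mice 6.15 to 19.1 (median 7.12). As for Hpgds the groups formed 3 steps, with 6 of 7 SZ-A mice below every HFD mouse and all 7 above every NC mouse, but here the exception was SZ-A mouse 6, at 19.1 FPKM. The next highest SZ-A mouse had 8.96. Mean FPKM was 1.52 ± 0.517 in NC (SD, n = 6), 21.0 ± 3.33 in HFD (SD, n = 7) and 8.75 ± 4.66 in SZ-A mice (SD, n = 7). HFD exceeded NC by a log2 fold change of 3.14 (SE 0.15), a ratio of means of 13.9.

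SZ-A lowered Daglb by −1.26 (SE 0.20, adjusted p = 0.0011 from limma; exact permutation p = 0.0017, unadjusted). The treated mice were above NC by 1.88 (SE 0.24, adjusted p = 6.7e-04 from limma). Exons of Daglb share 2309 of 9567 bases with Rac1, a GTPase gene on the opposite strand. Rac1, named here after its values were seen, ranged over 48.8 to 79.7 FPKM in the NC group, 81.7 to 117.4 in the HFD group and 40.2 to 84.0 in the SZ-A group. Its log2 fold changes, 0.67 (SE 0.14) between HFD and NC and −0.50 (SE 0.15) between SZ-A and HFD, had the signs of those of Daglb and were smaller. How the reads of the shared bases were divided is not given in the sources used here.

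**Figure D3:**
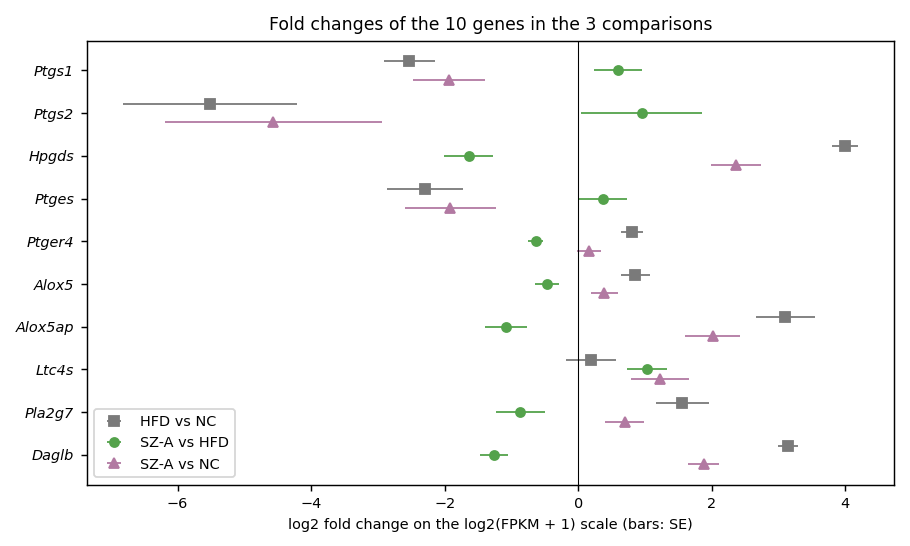
Log2 fold changes of the 10 genes on the log2(FPKM + 1) scale in the 3 comparisons, with bars for the standard error. Hpgds and Daglb lie at 3.99 and 3.14 between HFD and NC and at −1.64 and −1.26 between SZ-A and HFD, while Ltc4s lies at 0.19 and 1.03.

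Counted together, 4 of the 10 genes were higher in HFD than in NC mice without overlap (Hpgds, Daglb, Alox5ap and Pla2g7) and 1 was lower (Ptgs1). Over all 14706 genes tested, 12.7% were higher and 7.77% lower without overlap, 20.5% in all, while 41.1% were called, 21.0% higher and 20.1% lower. Nothing is read from these counts because the comparison helped to choose the genes. Hpgds and Daglb were picked for HFD values above NC values, and the 2 comparisons with SZ-A reuse those HFD or NC mice. The counts of those comparisons are therefore descriptions too, and the shares of all genes are no fair reference for them. Between SZ-A and HFD, 5 of 10 were called, namely Hpgds, Daglb, Alox5ap and Ptger4 lower and Ltc4s higher, where 22.8% of 14695 genes were called, 13.3% lower and 9.47% higher. Ptger4 alone was lower without overlap, and 0 were higher without overlap, against 4.01% and 2.07% of all genes and 6.08% in either direction. Under the stricter threshold of the study's methods, which also asks for an absolute log2 fold change over 1.5, 1 of 10 (Hpgds) passed, against 0.864% of all genes. The median log2 fold change of the 10 was −0.55, beside 0.03 over all genes. Between SZ-A and NC, 3 of 10 (Hpgds, Daglb and Alox5ap) were called higher, where 4.15% of 14718 genes were and 4.61% were called in either direction. The same 3 had no overlap with NC, beside 3.22% of all genes higher without overlap and 3.57% in either direction, and all 3 passed the stricter threshold, beside 1.79%. None was called lower by limma with all mice or by voom, although 3 of 10 had an unadjusted p under 0.05 in that direction by each tool. Those 3, Ptgs1, Ptgs2 and Ptges, were called lower in some other fits. With all 3 groups in a single fit the adjusted p from limma was 0.0091 for Ptgs1, 0.035 for Ptgs2 and 0.037 for Ptges. Without NC mouse 3 it was 0.016, 0.041 and 0.018, and without NC mouse 6 and SZ-A mice 2 and 7 it was 0.0090 for Ptgs1 and 0.036 for Ptges. Both exclusions were bound to widen the difference. NC mouse 3 had the lowest Ptgs1, Ptgs2 and Ptges of the NC group, and SZ-A mice 2 and 7 had the highest of the SZ-A group. The same mice were lowest and highest in Cdh1 within their groups, so nothing is concluded from the calls gained by leaving them out.

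The levels of the 10 genes were next set against the macrophage markers of the same mouse, as the log2(FPKM + 1) of the gene minus the mean of log2(FPKM + 1) over the 16 markers. This marker mean was 3.54 ± 0.83 for NC, 6.53 ± 0.26 for HFD and 5.29 ± 0.51 for SZ-A mice (SD, n = 6, 7 and 7). For Daglb the relative level differed by 0.15 between HFD and NC and by −0.02 between SZ-A and HFD, and for Alox5ap by 0.11 and 0.16, with groups that overlapped each time. For Hpgds it lay between −2.14 and −1.40 in the HFD group, and in the NC group between −3.34 and −2.48 apart from NC mouse 6 at −1.31, so the overlap there rests on that mouse. It differed by −0.40 between SZ-A and HFD, with overlap. The marker mean itself differed between the groups, so a gene that does not follow it can separate on this scale by subtraction alone. For Ltc4s and Ptgs1 the groups separated both times. The relative level of Ltc4s differed by −2.80 between HFD and NC and by 2.27 between SZ-A and HFD, with no overlap. That of Ptgs1 differed by −5.52 and 1.84, also with no overlap. Before subtraction, Ltc4s differed by 0.19 and 1.03, with overlap each time. Ptgs1 differed by −2.53 without overlap and by 0.60 with overlap. The relative levels of Alox5, Ptgs2 and Ptges were lower in HFD than in NC mice without overlap, by −2.14, −8.51 and −5.28. They overlapped between SZ-A and HFD. For Ptger4 the differences were −2.19 without overlap and 0.60 with overlap. Before subtraction, Alox5 and Ptger4 were higher in HFD than in NC mice, by 0.85 and 0.80 with overlap, so the subtraction reversed their signs. Ptgs2 and Ptges were lower before it too, but with overlap. Between SZ-A and HFD, Ptger4 was −0.64 without overlap before subtraction. A relative level is a description with no test, and it does not say in which cells a gene was expressed.

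**Figure D4:**
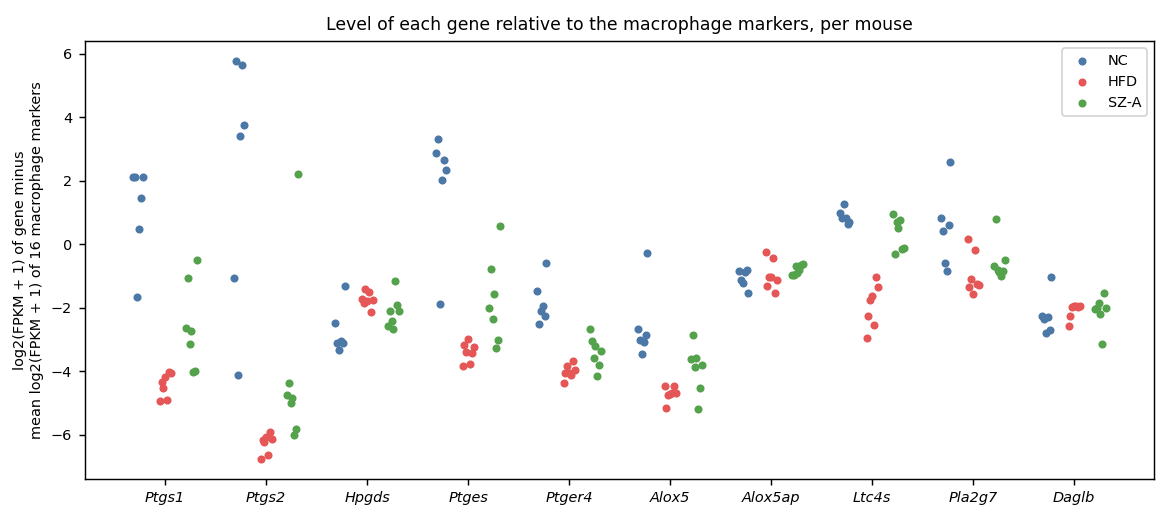
For each gene and mouse, log2(FPKM + 1) minus the mean log2(FPKM + 1) of 16 macrophage markers, coloured by group. Daglb and Alox5ap lie in overlapping bands in the 3 groups, while Ltc4s lies lower in the 7 HFD mice than in all 6 NC and all 7 SZ-A mice.

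SZ-A mice 5 and 6, which had macrophage markers in the HFD range, also had the highest Hpgds (30.9 and 14.5 FPKM) and Alox5ap (39.5 and 35.9 FPKM) of the SZ-A group, whereas Daglb was high in SZ-A mouse 6 and at 7.12 FPKM in SZ-A mouse 5. Hpgds and Daglb had a Pearson's r of 0.945 over the 20 mice and of 0.445 with group means removed. Among all genes, Cd200r4, Gas2l3 and Milr1 were most like Hpgds over the 20 mice (r of 0.990, 0.990 and 0.989), and Cd200r4, Cenpa and Nuak2 with group means removed (0.964, 0.963 and 0.959). For Daglb they were Dock2, Tm4sf19 and Rab11fip5 (0.989, 0.988 and 0.986), and Tm4sf19, Xylt1 and Colgalt1 with group means removed (0.880, 0.860 and 0.859). These mice share groups and tissue makeup, and the values are descriptions.

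The other genes of the pathways were listed by function, 84 in all, of which 61 were in the table. They were tested in each comparison, but the list was written with earlier results of these mice known, so their counts are descriptions and no independent support. Between HFD and NC, 23 of the 61 were called, 11 higher and 12 lower, which at 41.1% called among all genes is close to the background, and their median log2 fold change was 0.12 beside −0.04 over all genes. Between SZ-A and HFD, 13 of 61 were called, 4 higher and 9 lower, where 22.8% of all genes were, with a median of 0.02 beside 0.03. Under the stricter threshold 10 of the 61 passed between HFD and NC, beside 7.97% of all genes. Between SZ-A and HFD 0 passed by limma and 1 by voom, and 0 had both an unadjusted p under 0.05 and that fold change in limma. Between SZ-A and NC, 7 of 61 were called, 6 of them higher, where 4.61% of all genes were called and 4.15% higher.

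By size of change with HFD, Ptafr, Tbxas1 and Cnr2 led the called genes that were higher. Of the 12 endocannabinoid genes in the list 3 were called higher and 3 lower between HFD and NC, with 6 above and 6 below 0 and a median of −0.03. Of the 7 platelet-activating factor genes 2 were called higher and 0 lower, with 6 above and 1 below 0 and a median of 0.14. Over all genes 21.0% were called higher and 20.1% lower. Tbxas1, thromboxane synthase, ranged over 0.189 to 1.42 FPKM in NC mice, 9.69 to 20.4 in HFD mice and 2.83 to 10.9 in SZ-A mice. It rose with HFD by 3.14 on the log2 scale (SE 0.19) and fell with SZ-A by −1.38 (SE 0.26, adjusted p = 0.0027 from limma). Ptafr, the receptor for platelet-activating factor, rose with HFD by 3.79 (SE 0.35), from 0.208 to 6.90 FPKM in NC to 40.2 to 69.0 in HFD mice, and fell with SZ-A by −1.15 (SE 0.27, adjusted p = 0.0090 from limma). Cnr2, the cannabinoid receptor of immune cells, rose by 2.52 (SE 0.18) and fell by −1.18 (SE 0.23, adjusted p = 0.0029 from limma), with medians of 0.493 FPKM for NC, 6.64 for HFD and 2.49 for SZ-A mice. In each of these 3 genes the ranges of SZ-A and HFD overlapped through SZ-A mice 5 or 6.

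Of the enzymes that degrade 2-arachidonoylglycerol, Abhd6 and Abhd12 changed in opposite directions and Mgll, the main hydrolase, was not called. The log2 fold changes of Mgll were −0.21 (SE 0.45, adjusted p = 0.74 from limma) between HFD and NC and 0.62 (SE 0.30, adjusted p = 0.14 from limma) between SZ-A and HFD. Abhd6 fell with HFD by −0.94 (SE 0.24, adjusted p = 0.0068 from limma) and rose with SZ-A by 0.77 (SE 0.18, adjusted p = 0.0080 from limma). Abhd12 rose with HFD by 1.20 (SE 0.29, adjusted p = 0.0049 from limma) and fell with SZ-A by −0.81 (SE 0.16, adjusted p = 0.0030 from limma), with all 7 SZ-A mice, at 60.4 to 113 FPKM, below all 7 HFD mice, at 124 to 174. Faah, which degrades anandamide, had 0.262 to 19.1 FPKM in NC and 0.144 to 0.241 in HFD mice, so that it fell by −1.83 (SE 0.47, adjusted p = 0.0076 from limma). Its highest value belonged to NC mouse 6, and without that mouse the log2 fold change was −1.38.

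Supply of arachidonic acid was split as well. Pla2g12a, a secreted phospholipase A2, fell with HFD by −1.87 (SE 0.24, adjusted p = 3.9e-05 from limma) and rose with SZ-A by 1.22 (SE 0.20, adjusted p = 0.0012 from limma), with 24.4 to 72.7 FPKM in NC mice, 7.85 to 11.2 in HFD mice and 12.5 to 35.0 in SZ-A mice and no overlap in either comparison. Pla2g15, the lysosomal phospholipase A2, rose by 2.21 (SE 0.18) and fell by −1.03 (SE 0.22, adjusted p = 0.0049 from limma). The desaturases Fads2 and Fads1, which build arachidonic acid from linoleic acid, fell with HFD by −3.90 (SE 0.63, adjusted p = 2.8e-04 from limma) and −1.77 (SE 0.31, adjusted p = 5.1e-04 from limma). Fads2 ranged over 7.64 to 281 FPKM in NC and 3.40 to 6.84 in HFD mice, and Fads1 over 30.7 to 142 and 19.7 to 28.8. Fads2 was 102 FPKM in SZ-A mouse 2 and 115 in SZ-A mouse 7, against at most 13.7 in the other 5. Those were also the 2 SZ-A mice with high Cdh1. The difference between SZ-A and HFD did not pass for either desaturase (adjusted p = 0.31 and 0.41 from limma). The part of epithelial or smooth muscle RNA in the desaturase values was not tested.

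Among the prostaglandin genes outside the set, Akr1b3, a prostaglandin F synthase, rose with HFD by 1.45 (SE 0.17) and fell with SZ-A by −0.57 (SE 0.14, adjusted p = 0.012 from limma). Slco2a1 was lower in HFD than in NC mice by −2.48 (SE 0.72, adjusted p = 0.014 from limma). Its groups overlapped, at 1.76 to 87.5 FPKM in NC and 1.56 to 2.45 in HFD mice, and 2 HFD mice were below every NC mouse. The part of epithelial or smooth muscle RNA in this difference was not tested. Cbr1, a carbonyl reductase that acts on prostaglandins, and Ltb4r1, the high-affinity leukotriene B4 receptor, were called higher with SZ-A at 0.55 (adjusted p = 0.0497 from limma) and 0.42 (adjusted p = 0.043 from limma). When single mice were left out, Cbr1 kept its call in 2 and Ltb4r1 in 5 of 14 fits, and without NC mouse 6 and SZ-A mice 2 and 7 both lost it, with Cbr1 at 0.34. Of the 3 other prostanoid receptors in the table, 0 were called between HFD and NC by limma or voom, with 0 at an unadjusted p under 0.05, and 1, the thromboxane receptor Tbxa2r, between SZ-A and HFD, where it fell by 0.28 on the log2 scale. None of 6 other lipoxygenase and leukotriene-processing genes was called by limma in any of the 3 comparisons. An unadjusted p under 0.05 was reached by 2 between HFD and NC, where voom called 1, by 2 between SZ-A and HFD and by 0 between SZ-A and NC, where voom called 0 in each.

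**Figure D5:**
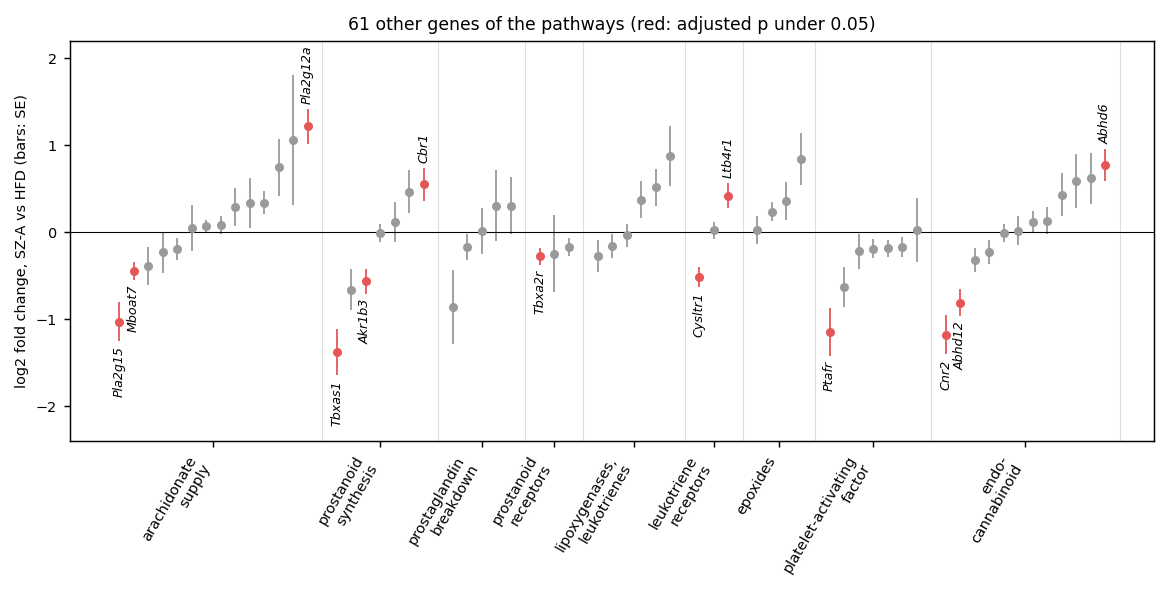
Log2 fold change between SZ-A and HFD, with standard error bars, of the 61 other pathway genes in the table, grouped by function, with the 13 called genes in red. Pla2g12a is highest at 1.22 and Tbxas1 lowest at −1.38.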

How the data were processed

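Poly(A) RNA of eWAT from 20 mice was sequenced as paired-end reads. Alignment by the authors was to GRCm38 with HISAT2, and the deposited values are FPKM of 14776 genes, each above 0 in all 20 mice. Their processing notes name featureCounts 1.5.0-p3. The annotation release and the strand setting are not given in the sources used here. Gene names and exon lengths came from GENCODE M21 (14770 genes matched), and promoter sequences from RefSeq on GRCm38.p6, where 9 of the 10 genes had a window. Read numbers were worked out from FPKM and exon lengths. In each mouse 95.9% to 96.3% of values under 1000 reads were whole within 0.01 reads, where a share of 0.95 was a condition of the step. Reads on deposited genes were 13567667 to 17784213 for NC mice, 17216011 to 19388628 for HFD mice and 15305451 to 18717598 for SZ-A mice. No 2 mice had identical values.

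Only the 2 groups compared entered each fit of limma 3.58.1 in R 4.3.3 (lmFit, eBayes with trend) on log2(FPKM + 1), keeping genes whose mean reached 0.1 FPKM, with Benjamini-Hochberg adjustment over all genes tested. The study's DESeq2 test was replaced because FPKM are not counts. Steps were tested on simulated data. Exact permutation tests were two-sided. Lists are described by counts and medians only. The 10 genes and all lists were chosen with earlier results of these data known. Genes named are the 10, the 5 called pathway genes with the largest changes in each direction in HFD against NC and in SZ-A against HFD, the 3 most like Hpgds and Daglb, and markers. Others, such as Rac1, Cdh1, Actg2, Myh11, Hpgd, Mgll and Tbxa2r, were named after their values were seen. Alternatives were a pseudocount of 0.1, a mean of 1 FPKM as filter or no filter, a fit with all 3 groups, median-ratio scaling, voom on the read numbers, a block for the replicate number, leaving out each mouse, and, added later, scaling by total reads and leaving out 3 mice. Protein sequences were not used here. Tables and plots were made with Python 3.11.15, pandas 2.3.3, NumPy 2.4.6 and matplotlib 3.10.9.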

Additional observations from a re-analysis of the deposited data

Results flagged for a closer look

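On log2(FPKM + 1), Dixon's test at the 95% level was applied to the highest and the lowest mouse of each of the 3 groups for each of the 10 genes, which is 30 groups, of which 3 held a mouse far from the others. Chance alone gives about 1 in 20 groups. Ptgs2 in SZ-A mouse 7 was 154 FPKM, with a gap of 0.937 of the group's range (critical value 0.568). Alox5ap in NC mouse 6 was 0.435 FPKM, with a gap of 0.686 (critical value 0.625). Daglb in SZ-A mouse 6 was 19.1 FPKM, with a gap of 0.679 (critical value 0.568).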

How the results depend on the processing

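Of 1097 values of single genes under the alternatives, 1033 kept their direction and their side of the threshold, 36 lost and 17 gained a call, 6 moved and 5 reversed. Those reversed were log2 fold changes of Ptgs2 and Ptges between SZ-A and HFD, and of Ltc4s between HFD and NC. Ptgs2 was −0.12 without NC mouse 6 and SZ-A mice 2 and 7. With 1 mouse left out Ptgs2 was −0.0612 to 1.14, the lowest without SZ-A mouse 7. Ptges was −0.17 without the 3 mice. Ltc4s was −0.14 to 0.44 with 1 mouse left out, the lowest without NC mouse 6. Leaving out the 3 mice removes only NC mouse 6 from that comparison, so the −0.14 there is the same fit, counted again among the 5. The 6 that moved were the HFD against NC values of Hpgds, Daglb and Alox5, which were larger with a pseudocount of 0.1 and with voom, up to 3.84 for Daglb and 1.48 for Alox5. Among called pathway values, voom gave 4.29 for Cnr2 and −3.75 for Faah between HFD and NC and 0.84 for Ltb4r1 between SZ-A and HFD, over 1.5 times the values reported, and a pseudocount of 0.1 moved them the same way. Of the 10 genes, 5 were called between SZ-A and HFD, 3 in a fit of all 3 groups, 1 with the stricter fold threshold and 3 to 6 with 1 mouse left out, the 3 arising without HFD mouse 5. Between SZ-A and NC, 3 were called, but 7 in a fit of all 3 groups, 6 without the 3 mice and 3 to 6 with 1 mouse left out, namely 6 without NC mouse 3 and 5 without SZ-A mouse 7. In a fit of all 3 groups Alox5ap and Ltc4s lost their calls between SZ-A and HFD. Calls gained by the 10 between SZ-A and NC were lower for Ptgs1, Ptgs2 and Ptges and higher for Ltc4s. For Ptgs1, Ptgs2 and Ptges, leaving out NC mouse 3 or SZ-A mice 2 and 7 removed the values nearest the other group. The causes were not tested. Of the pathway genes, 23 were called between HFD and NC (10 with the stricter threshold, 18 to 32 with 1 mouse left out), and 13 between SZ-A and HFD (0 and 10 to 18). Hpgds, Daglb and Ptger4 kept their calls between SZ-A and HFD in all 14 fits that left out a mouse and under the 9 other settings. The replicate numbers were not taken as pairs, and the correlation of deviations of same-numbered mice ran from −0.41 to 0.58. Such correlations cannot show whether mice were housed or sampled together. In 1 of 19 pairs the same-numbered mouse was the best match, looked up in 1 direction only. With the replicate number as a block, 5 genes were called between SZ-A and HFD and 3 between SZ-A and NC, where Ptgs1 gained and Alox5ap lost a call. Ptgs2 in HFD mice rested on 7 to 25 reads and Alox5ap in NC mouse 6 on 9, so depth limits those values.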
